A study of Mus musculus with 12 samples.

Results

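The N-myc downstream regulated genes form a family of 4, Ndrg1 to Ndrg4, and all 4 were measured here by the probes whose symbol in the array annotation is Ndrg1, Ndrg2, Ndrg3 or Ndrg4. Each gene has 1 such probe, so the family makes up 4 of the 25697 probes on the array. RNA came from the hippocampus and the cortex of male 3×TgAD mice that drank amitriptyline (AMI, a tricyclic antidepressant; 100 µg per g of body weight) or plain water (vehicle) for 4 months, from 14 to 18 months of age. Each tissue and treatment is represented by 3 arrays, 12 in all, of the Illumina Mouse Ref-8 BeadChip, which reads each transcript with short probes on beads. All groups, the vehicle mice included, carry the 3×TgAD alleles (among them human APP and tau transgenes driven by the neuronal Thy1 promoter) and, by the methods, received BrdU midway through the treatment. No wild-type mice are among the groups, so the comparisons are of AMI and of tissue on this background. The labels do not say which mouse gave which sample, and p-values therefore measure the spread between these samples.

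NDRG proteins share an alpha/beta hydrolase fold without known enzyme activity, and the family is named after the repression of NDRG1 by N-myc, a transcription factor that binds DNA with Max. NDRG1 is known from myelinating cells, where its loss causes a demyelinating neuropathy, and it is induced by hypoxia and phosphorylated by SGK1 and then GSK3. NDRG2 is abundant in astrocytes, NDRG3 is a protein stabilized by lactate in low oxygen, and NDRG4 is expressed mainly in neurons and the heart.

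The probes are shown first because one gene of the family is read at 2 places and the tables name only one of them Ndrg1. Another probe carries the older symbol Ndrl, and its accession is that of the Ndrg1 transcript in RefSeq (GRCm38.p6), which also lists Ndrl among the synonyms of Ndrg1. It lies outside the rule above and was found after its values were seen, so its values are given beside those of the 4 members. The first 30 of the 50 bases of each probe, as the annotation writes them, are:
Ndrg1: ccaggatcttggagttgctagaggaaaagt
Ndrl: gggtttgtagcattggcctcttaagcaatg
Ndrg2: ggccagagtaagcaaggaaaatgggcagat
Ndrg3: cctttatcagagggaaggggacaaactcag
Ndrg4: gagcctaattttgtgtattctgtttggtgg
By the annotation the Ndrg1 probe starts at base 2642 of its transcript and the Ndrl probe at base 2469. It gives no transcript version for the Ndrl probe, so the distance of 173 bases towards the 5′ end holds only if both share one numbering. The starts in the transcripts of the other members are base 1230 for Ndrg2, 2257 for Ndrg3 and 2614 for Ndrg4. No 2 of these probes share a run of more than 8 bases, and no other probe on the array holds a run of 16 bases of any of them. The annotation places the probe of Ndrg1 on the minus strand at chr15:66761078-66761127, that of Ndrg2 on the minus strand at chr14:52525686-52525735, that of Ndrg3 on the minus strand at chr2:156753307-156753356 and that of Ndrg4 on the plus strand at chr8:98238732-98238781. It names no genome build and gives no position for the Ndrl probe, so exon and UTR were not assigned.

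All 5 probes had a detection p of 0 on all 12 arrays, with linear signals between 407 and 1790, or 6.26 to 28.3 times the median signal of undetected probes of the same array. Between 12588 and 13280 probes were detected per array. Levels below are log2 signals after z normalization, a scale on which 0 is the mean of an array, and levels of different probes are not compared. The labelled tissues were checked by marker genes. Of 5 tested markers of hippocampal neurons, 4 were called higher in the hippocampus of vehicle mice (Fibcd1, C1ql2, Prox1 and Dsp, by 1.15 to 3.09 on the log2 scale), and Wfs1 was at -0.56 without passing (adjusted p = 0.0614). Of 7 tested markers of cortical neurons, 6 were lower there, 4 of them called and the lowest being Tbr1 (-1.91), while Fezf2 was called higher in the hippocampus (0.68, limma adjusted p = 0.00482). Genes of striatal neurons, which stand for neither label, were called higher in the cortex for 4 of 4 tested genes (median difference, hippocampus minus cortex, -1.98). The hippocampal array of vehicle replicate 3 stood apart in 6 genes of the choroid plexus, whose mean deviation there was 1.98, against -0.71 to -0.35 on the other 5 hippocampal arrays.

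**Figure D1:**
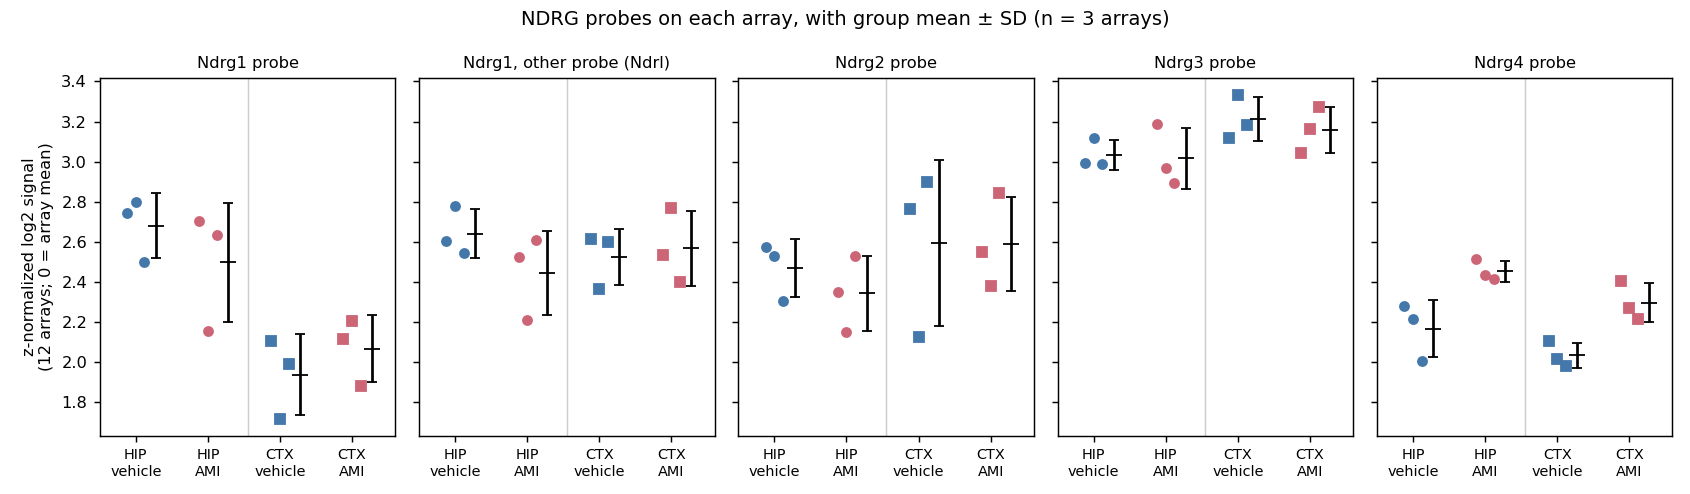
z-normalized log2 signal (y axis, all 12 arrays scaled together) of the 5 probes in the hippocampus (HIP, circles) and the cortex (CTX, squares) of vehicle (blue) and AMI (red) mice; bars are the mean ± SD of 3 arrays. The Ndrg1 probe was highest in the vehicle hippocampus (mean 2.68) and lowest in the vehicle cortex (1.94), the Ndrl probe was between 2.45 and 2.64 in all 4 groups, and Ndrg4 was higher on all AMI arrays of a tissue than on its vehicle arrays.

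The first question was whether AMI changed the family in either tissue. No member was called at an adjusted p under 0.05 in the hippocampus or the cortex, where 0.0% of all probes were called by limma with Benjamini-Hochberg adjustment (13163 hippocampal and 12944 cortical probes tested). At an unadjusted p of 0.05 or less, limma gave 310 hippocampal probes (2.36% of those tested) and 813 cortical probes (6.28%), and 1 of the 4 members, Ndrg4, was among them in each tissue. Array weights and the neqc background correction each called 2 probes in the cortex, none of them a member. Ndrg4 was named by the study as changed in both tissues on these same arrays, so its values here are not independent evidence. The study's call used a z-ratio cutoff, a p cutoff of 0.05 and a less strict false discovery rate than the adjusted p used here. In the main limma fits the adjusted p of Ndrg4 was above the study's rate too in both tissues (0.756 in the cortex). Over the alternatives its lowest adjusted p was 0.447 in the hippocampus, also above that rate. In the cortex it was 0.0752, with array weights, which is below that rate. Why the calls differ was not tested. The study also reported more Ndrg4 protein in both tissues by western blot, which these RNA arrays do not measure.

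Ndrg4, the neuronal and cardiac member, was higher with AMI in both tissues by about the same amount, without passing the adjustment. In the hippocampus its level, normalized within the tissue, was 2.41, 2.34 and 2.12 in vehicle replicates 1 to 3 and 2.66, 2.57 and 2.55 in AMI replicates 1 to 3. The AMI arrays lay close together above all vehicle arrays, and vehicle replicate 3, the array with the choroid plexus genes, was the lowest. The log2 fold change was 0.30 ± 0.11 (SE, n = 3 per group), a ratio of 1.23. The unpaired limma fit gave an unadjusted p of 0.0221 and an adjusted p of 1.0. With the replicate number as a block in limma these were 0.00696 and 0.584. Without that vehicle array the unpaired fold change was 0.22, with an unadjusted limma p of 0.0888. In the cortex the level was 1.99, 1.90 and 1.87 in vehicle replicates 1 to 3 and 2.27, 2.14 and 2.09 in AMI replicates 1 to 3. Here too the groups did not overlap, and the residual SD of Ndrg4 (0.0779) was below the median of all tested probes (0.133). The log2 fold change was 0.25 ± 0.09 (SE, n = 3 per group), a ratio of 1.19, with an unadjusted p of 0.0241 and an adjusted p of 0.756 in limma. Without AMI replicate 1 the cortical fold change was 0.20, with an unadjusted limma p of 0.103. An exact permutation test of 3 against 3 arrays cannot go below 0.1.

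AMI groups that lay wholly above the vehicle groups were found for 4.38% of hippocampal and 8.1% of cortical probes tested, and among the 4 members for Ndrg4 in each tissue. A change of that size or larger, in either direction, was seen for 2.86% of hippocampal and 8.79% of cortical probes. The change of Ndrg4 in the hippocampus minus that in the cortex was 0.02 (95% interval -0.26 to 0.31, adjusted p = 1.0 in limma), an interval that holds differences as large as the change itself.

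**Figure D2:**
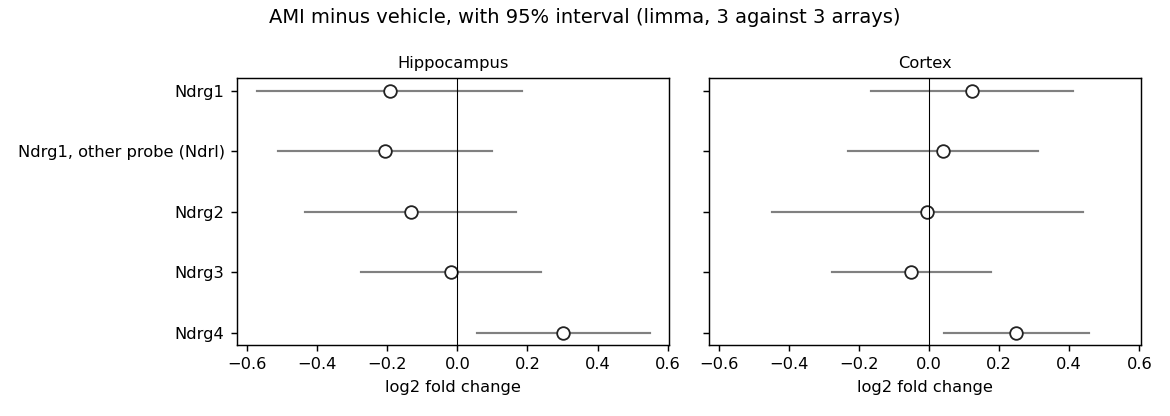
Log2 fold change of AMI over vehicle (x axis) for each probe in the hippocampus and the cortex; points are limma estimates from 3 against 3 arrays and lines their 95% intervals. Only the intervals of Ndrg4 lie above 0, from 0.06 to 0.55 for hippocampus and from 0.04 to 0.46 for cortex, and no point passed the adjustment.

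Ndrg1, the member known from myelinating cells, had a log2 fold change of -0.19 ± 0.17 (SE, n = 3 per group, adjusted p = 1.0 in limma) in the hippocampus. Its levels there were 2.90, 2.96 and 2.64 in vehicle replicates 1 to 3 and 2.86, 2.28 and 2.78 in AMI replicates 1 to 3. The groups overlapped, and the low AMI value came from replicate 2 alone, without which the fold change was -0.01. The Ndrl probe gave the same picture, with 2.75, 2.94 and 2.69 on the vehicle arrays, 2.67, 2.34 and 2.76 on the AMI arrays and a log2 fold change of -0.21 ± 0.13 (SE, adjusted p = 1.0). In the cortex the fold change was 0.12 ± 0.13 for Ndrg1 and 0.04 ± 0.12 for Ndrl (SE, adjusted p = 0.916 and 0.977). When single arrays were left out, the cortical value ranged from 0.017 (without vehicle replicate 2) to 0.21 for Ndrg1 and from -0.055 (without AMI replicate 2) to 0.12 for Ndrl, which was also negative without vehicle replicate 2 (-0.037).

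Oligodendrocyte markers were set beside Ndrg1. In the hippocampus 11 of 11 tested markers were lower with AMI (median log2 fold change -0.50, against 0.01 over all tested probes), 6 of them at an unadjusted limma p of 0.05 or less and none past the adjustment. Of all tested hippocampal probes 2.36% were at that unadjusted p. The markers with the largest values were Trf, the iron carrier transferrin (-0.73 ± 0.12), Opalin, a membrane protein of myelin (-0.68 ± 0.19), and Cnp, a myelin enzyme (-0.60 ± 0.12, SE, n = 3 per group). Both Ndrg1 probes were lower in the mean there, by less than all of these markers except Mobp (-0.13), with Mal at -0.22. The mean deviation of 12 markers from their average over the 12 arrays was lowest in AMI replicate 2 (-0.47), the array on which both Ndrg1 probes were lowest among the hippocampal arrays. It ran from -0.47 to -0.16 in hippocampal AMI and from -0.17 to 0.26 in hippocampal vehicle, so the groups overlapped. In the cortex the same markers had a median fold change of -0.01, with 5 higher and 6 lower. Their part in the values of Ndrg1 was not tested, and in these bulk samples fewer cells of a type and less RNA per cell cannot be told apart.

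**Figure D3:**
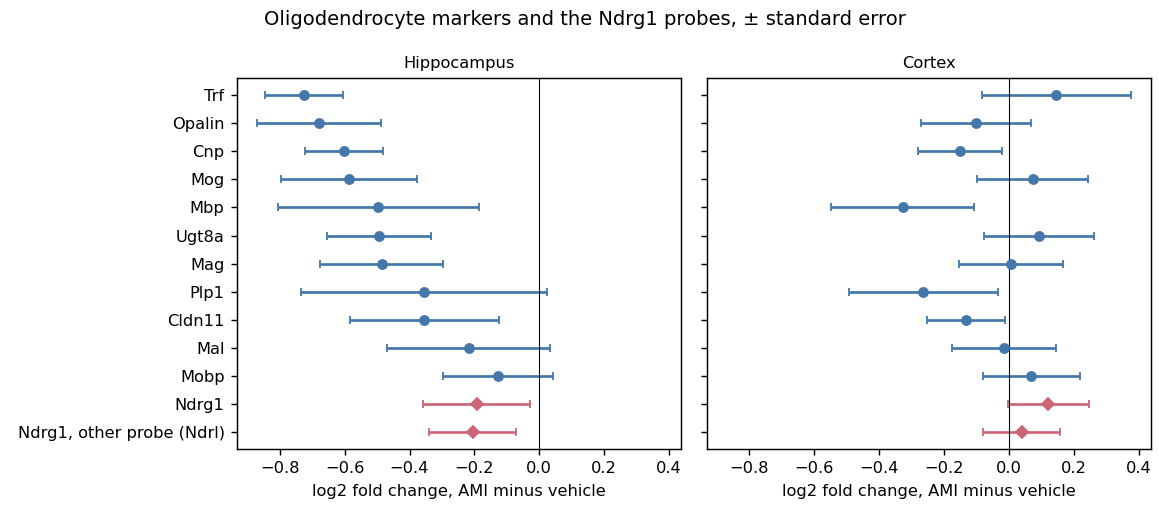
Log2 fold change of AMI over vehicle (x axis) with its standard error for 11 oligodendrocyte markers (blue circles) and the 2 probes of Ndrg1 (red diamonds). All 11 markers lie below 0 in the hippocampus, between -0.73 and -0.13, with the Ndrg1 probes at -0.19 and -0.21; in the cortex the markers lie on both sides of 0.

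Ndrg2, the astrocytic member, had a log2 fold change of -0.13 ± 0.13 in hippocampus and -0.005 ± 0.19 in cortex (SE, n = 3 per group, adjusted p = 1.0 and 0.996). Leaving out single arrays gave hippocampal values from -0.23 (without AMI replicate 3) to -0.031 (without AMI replicate 2). The cortical arrays differed more among themselves than by treatment, with levels of 2.61, 2.0 and 2.73 in vehicle replicates 1 to 3 and 2.40, 2.25 and 2.68 in AMI replicates 1 to 3. Vehicle replicate 2 was the lowest of them, and the residual SD of 0.317 was larger than that of 94.8% of tested probes. The 95% interval in the cortex, -0.45 to 0.44, therefore holds changes of either sign within these bounds at this number of arrays. Of 11 tested astrocyte markers, 7 were higher and 4 lower in hippocampus (median 0.01) and 6 higher and 5 lower in cortex (median 0.10).

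Ndrg3, the member stabilized by lactate, had the smallest log2 fold change of the members in the hippocampus, -0.02 ± 0.11, and -0.05 ± 0.10 in the cortex (SE, n = 3 per group, adjusted p = 1.0 and 0.956). Its levels lay between 3.06 and 3.37 on the 6 hippocampal arrays and between 2.87 and 3.15 on the 6 cortical arrays, and the AMI range held the vehicle range in the hippocampus and overlapped it in the cortex. The 95% intervals were -0.27 to 0.24 for hippocampus and -0.28 to 0.18 for cortex.

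Since Ndrg3 and Ndrg4 were read on the same arrays, their log2 ratio is free of an array's mean, though not of its SD. In the hippocampus the ratio of Ndrg4 to Ndrg3 was -0.68, -0.99 and -1.05 in vehicle replicates 1 to 3 and -0.64, -0.61 and -0.54 in AMI replicates 1 to 3. In the cortex it was -0.97, -1.24 and -1.06 on the vehicle arrays and -0.60, -0.94 and -0.94 on the AMI arrays. In these signals every AMI array was above every vehicle array of its tissue. The gap was narrow between AMI replicate 1 and vehicle replicate 1 in the hippocampus. It was also narrow between AMI replicate 2 and vehicle replicate 1 in the cortex. After z normalization within the tissue the cortical groups overlapped. There AMI replicate 3 had 2.09 for Ndrg4 and 3.09 for Ndrg3, farther apart than 1.99 and 2.94 in vehicle replicate 1. With AMI the mean ratio was 0.31 higher in hippocampus and 0.27 higher in cortex, which shows unequal change of the 2 probes and not which one changed. Against the mean of Ndrg1, Ndrg2 and Ndrg3 the difference was 0.41 in hippocampus and 0.21 in cortex, with groups apart in the former and overlapping in the latter. This ratio was chosen after its values were seen and is given without a test.

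**Figure D4:**
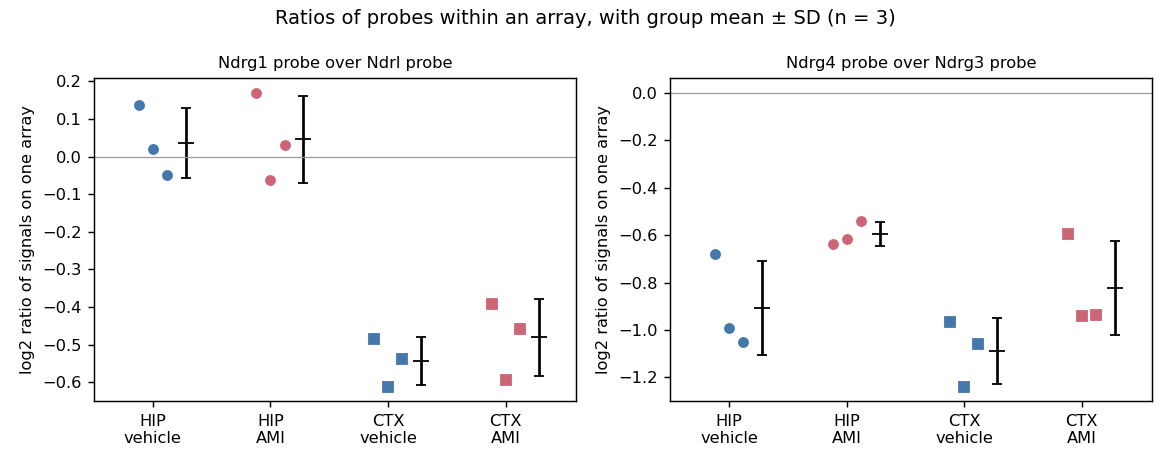
Log2 ratio of linear signals on the same array (y axis) for the Ndrg1 probe over the Ndrl probe (left) and the Ndrg4 probe over the Ndrg3 probe (right); points are arrays and bars the mean ± SD of 3. The left ratio lies between -0.06 and 0.17 on hippocampal arrays and between -0.61 and -0.39 on cortical arrays, and the right ratio is higher with AMI in both tissues.

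Neuronal markers were set beside Ndrg4. In the hippocampus 4 of 10 tested markers were higher with AMI and 6 lower, with a median log2 fold change of -0.02. In the cortex 3 were higher and 7 lower, with a median of -0.12 against 0.02 over all tested probes, and Syn1, a synaptic vesicle protein, had -0.43 ± 0.12 (SE, adjusted p = 0.756). Ndrg4 had the opposite sign to 7 of these 10 markers in the cortex, none of which was called, and the part of neurons in its values was not tested. All 4 tested striatal genes were lower in the cortex of AMI mice (median -0.41), with Rgs9, a regulator of G protein signalling, at -0.59 ± 0.16, and the part of such tissue in the cortical values of Ndrg4 was not tested.

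The second question was where each member was expressed. Hippocampus and cortex were compared on all 12 arrays, normalized together. Tissue coincides with the deposited table and its scanner software export, so tissue and table cannot be told apart. In vehicle mice 3418 of 13929 tested probes were called (24.5%), 2042 of them higher in the hippocampus (14.7%), and in AMI mice 3681 (26.4%), 2054 of them higher (14.7%). With arrays centred on their medians the split was 2112 higher and 310 lower in vehicle mice and 2507 higher and 476 lower in AMI mice. Of the 4 members 1 was called in vehicle mice and none in AMI mice, so in vehicle mice the family's share was near that of all probes.

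The Ndrg1 probe was higher in the hippocampus of vehicle mice. Its level was 2.75, 2.80 and 2.50 in hippocampal vehicle replicates 1 to 3 and 2.11, 1.71 and 1.99 in cortical vehicle replicates 1 to 3. The groups did not overlap, and the difference was 0.74 ± 0.15 on the log2 scale (SE, n = 3 per group, limma adjusted p = 0.00423), a ratio of 1.67. Differences of this size or larger in either direction were found for 5.02% of tested probes. In AMI mice the level was 2.70, 2.16 and 2.64 in hippocampus and 2.12, 2.21 and 1.88 in cortex. Hippocampal AMI replicate 2 fell among the cortical values, and the difference of 0.43 ± 0.15 did not pass (adjusted p = 0.0575). Without that array the difference was 0.59 and passed (adjusted p = 0.0127). The order of the group means was hippocampal vehicle (2.68), hippocampal AMI (2.50), cortical AMI (2.07) and cortical vehicle (1.94), in which neighbours overlapped. The difference between tissues was 0.31 lower with AMI than with vehicle (95% interval of the change -0.79 to 0.16, adjusted p = 1.0), so the call in one treatment and not in the other is not a shown difference.

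The other probe of Ndrg1 did not give that difference. The Ndrl probe read 2.60, 2.78 and 2.54 in hippocampal vehicle replicates 1 to 3 and 2.62, 2.36 and 2.60 in cortical vehicle replicates 1 to 3, which overlap. Hippocampus minus cortex was 0.12 ± 0.13 in vehicle mice (95% interval -0.16 to 0.40, adjusted p = 0.564) and -0.12 ± 0.13 in AMI mice (-0.40 to 0.16, adjusted p = 0.536). Within an array, the log2 ratio of the Ndrg1 probe to the Ndrl probe was 0.04 ± 0.09 on 6 hippocampal arrays and -0.51 ± 0.08 on 6 cortical arrays (SD). Every hippocampal array was above every cortical array, a difference of 0.55 with an exact two-sided permutation p of 0.00216, the smallest that 6 against 6 arrays can give. The test was chosen after the ratios were seen and pooled both treatments, so its p only restates that separation and is no independent evidence. Among single probes, 40.1% lay apart between the tissues of vehicle mice, and no such share was taken for ratios of 2 probes. In deviations from the 4 group means the 2 probes moved together, with a Pearson correlation of 0.911, the highest of 10979 probes compared with the Ndrg1 probe, so that they followed each other between arrays of a group and disagreed between the tissues. What lies behind the disagreement was not tested, and the higher hippocampal level of Ndrg1 was seen with the Ndrg1 probe and not with the Ndrl probe.

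**Figure D5:**
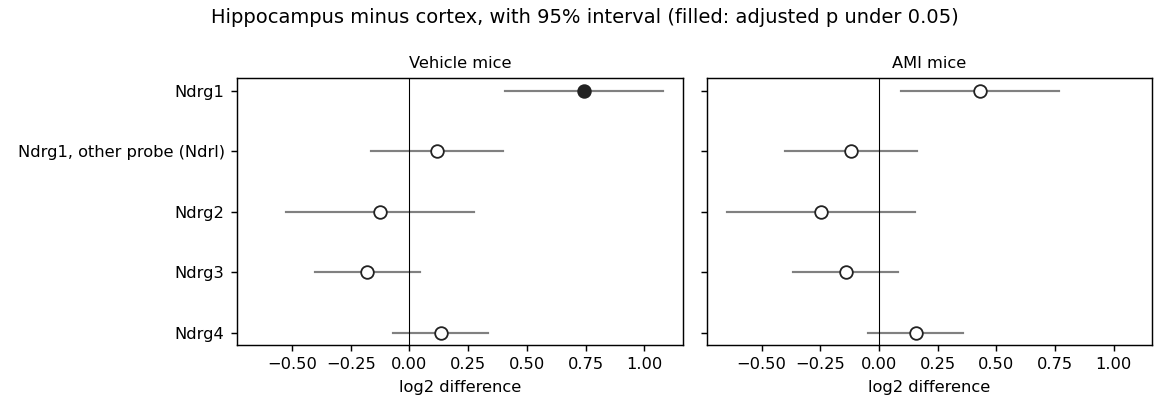
Hippocampus minus cortex on the log2 scale (x axis) for each probe in vehicle and AMI mice; points are limma estimates, lines their 95% intervals, and a filled point marks an adjusted p under 0.05. The Ndrg1 probe lies at 0.74 in vehicle mice and 0.43 in AMI mice, while the Ndrl probe of the same gene lies at 0.12 and -0.12.

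Ndrg2 was not called between the tissues, with hippocampus minus cortex at -0.13 ± 0.18 in vehicle mice and -0.25 ± 0.18 in AMI mice (SE, adjusted p = 0.67 and 0.358). Its group means ran from 2.34 in hippocampal AMI and 2.47 in hippocampal vehicle to 2.59 in both cortical groups, and all neighbours overlapped. For Ndrg3 the differences were -0.18 ± 0.10 and -0.14 ± 0.10 (adjusted p = 0.229 and 0.335), with means of 3.02 and 3.03 in hippocampus and 3.16 and 3.21 in cortex, all neighbours overlapping. For both genes the sign of these differences turned when arrays were centred on their medians, to between 0.12 and 0.28, a scaling that also raised the median of all probes (from 0.03 to 0.18 in vehicle mice and from 0.02 to 0.19 in AMI mice). Ndrg4 was at 0.13 ± 0.09 in vehicle mice and 0.16 ± 0.09 in AMI mice (adjusted p = 0.333 and 0.242), and was positive under all scalings tried. Its group means were 2.45 in hippocampal AMI, 2.30 in cortical AMI, 2.17 in hippocampal vehicle and 2.03 in cortical vehicle. In AMI mice the lowest hippocampal array (2.41) was just above the highest cortical one (also 2.41 when rounded), while all other neighbours overlapped. Among all probes the tissues lay apart in 41.8% in AMI mice and 40.1% in vehicle mice.

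Cell type markers also differed between the tissues of vehicle mice. Of the microglial markers 8 of 8 were higher in the hippocampus, 6 of them called (median 0.54), and of the neuronal markers 8 of 10 were lower, 3 of them called (median -0.29). For oligodendrocytes 5 of 12 markers were higher, 2 of them called, and 7 lower, 1 of them called (median -0.13). For astrocytes 4 of 12 were higher, 2 of them called, and 8 lower, 1 of them called (median -0.12). The Ndrg1 probe thus had the opposite sign to the median of the oligodendrocyte markers, but the same sign as 2 of the called ones. The part of any cell type in the value of the Ndrg1 probe was not tested.

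Genes around the family were given by lists. In the Myc network, whose N-myc gave the family its name, 6 of 11 genes were tested within each tissue. With AMI 5 were higher and 1 lower in hippocampus (median 0.03) and 6 were higher in cortex (median 0.08 against 0.02 over all tested probes), and none was called. The largest values were those of Mxi1, a Max partner that opposes Myc, in the hippocampus (0.20 ± 0.10), and Max in the cortex (0.21 ± 0.12, SE, n = 3 per group). Mycl, the L-myc gene, was called higher in the hippocampus than the cortex in vehicle mice (0.96 ± 0.14, adjusted p = 0.000335) and in AMI mice (0.83 ± 0.14, adjusted p = 0.000961), and Mlx, a Max-like protein, in AMI mice (0.26 ± 0.08, adjusted p = 0.0333, chosen after their values were seen).

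CACGTG, the E-box that Myc and Max bind, was looked for in the RefSeq promoter windows (250 bases before to 50 after a start, GRCm38.p6). Its reverse complement is the same word, so 1 search covers both strands. It was found in 1 of 9 windows of the members, against 7.15% of all 32851 windows, and that window is 1 of 4 of Ndrg4, while the 3 windows of Ndrg2 and the 2 of Ndrg3 did not hold it. Ndrg1 was not searched. The stretch at chr8:95677713-95677742 (plus strand, E-box in capitals, which begins 38 bases before the start) is shown as the only match among the members' windows:
Ndrg4: cgcccacccaccCACGTGggcacgcccccg
A match of letters says nothing of binding in these tissues.

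Among the kinases upstream of NDRG1 (SGK, GSK3 and mTORC2), 11 genes were tested for hippocampus and 10 for cortex. With AMI 6 were higher and 5 lower in the hippocampus (median 0.004), where Sgk1, the kinase that primes NDRG1, had -0.26 ± 0.18, Sgk2, its relative, -0.23 ± 0.10, and Pdpk1, which activates both SGK1 and AKT, -0.19 ± 0.12. In the cortex 4 were higher and 6 lower (median -0.04), led by Pdpk1 (-0.19 ± 0.09) and Mtor (-0.16 ± 0.10, SE, n = 3 per group), and none was called in either tissue. Between tissues Gsk3b, which phosphorylates NDRG1 after SGK1, was called higher in the hippocampus in vehicle mice (0.40 ± 0.09, adjusted p = 0.00637) and AMI mice (0.29 ± 0.09, adjusted p = 0.0315), and Sgk3 in vehicle mice (0.43 ± 0.12, adjusted p = 0.0239, chosen after their values were seen).

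In the hypoxia response, which induces NDRG1, 14 of 17 genes were tested. With AMI 11 were higher and 3 lower in the hippocampus (median 0.09 against 0.01 over all tested probes), with 4 at an unadjusted p of 0.05 or less, and 9 were higher and 5 lower in the cortex (median 0.05 against 0.02), with 2. None was called. Hif1a, the oxygen-regulated subunit of the factor, had 0.44 ± 0.18 in the hippocampus (unadjusted p of 0.0401, adjusted p = 1.0) and 0.38 ± 0.13 in the cortex (unadjusted p of 0.02, adjusted p = 0.756). Its AMI arrays lay above its vehicle arrays in both tissues, as did those of 4.38% of hippocampal and 8.1% of cortical probes tested. Hif1a was named for the size of its change in this list. In the hippocampus Slc2a1, a glucose transporter, had 0.33 ± 0.13 and Vhl, which marks the factor for degradation, 0.24 ± 0.10. In the cortex Pgk1, a glycolytic enzyme, had 0.39 ± 0.12 and Egln1, an oxygen sensor, 0.18 ± 0.11. The Ndrg1 probe, of a target in this response, had -0.19 in hippocampus and 0.12 in cortex, as given above.

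Members were also compared with one another across arrays. Over the 12 arrays the Pearson correlation was -0.58 between Ndrg1 and Ndrg3, 0.43 between Ndrg1 and Ndrg4, -0.40 between Ndrg3 and Ndrg4 and between -0.22 and 0.11 for the other pairs, values that hold the differences between tissues and treatments. In deviations from the 4 group means, Ndrg1 correlated with Ndrg4 at 0.52, above 97.0% of all probes compared with Ndrg1, and with Ndrg2 at 0.46, above 95.2%, and the other pairs lay between -0.21 and 0.12. The probes most like each member by level were Psmd7, Mki67ip and 1700071K01Rik for Ndrg1 (0.932 to 0.949), Fkbp1a, Mfap1b and Nol4 for Ndrg2 (0.848 to 0.864), Wsb1, Tmprss7 and LOC100047393 for Ndrg3 (0.855 to 0.867), and 1810074P20Rik, Nol4 and Mtrf1l for Ndrg4 (0.837 to 0.883). By deviations they were Ndrl, Alg9 and Psat1 for Ndrg1 (0.864 to 0.911), Cdv3, Pex14 and Gde1 for Ndrg2 (0.909 to 0.932), Grin2c, Cept1 and Glis1 for Ndrg3 (0.873 to 0.928), and Alkbh3, Amn and Fgf12 for Ndrg4 (0.868 to 0.961). These are the highest of 10979 correlations over 12 arrays that share group and array effects, and the one pair of them known to be a single gene, Ndrg1 and Ndrl, was not higher than the leading values of the other members.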

How the data were processed

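Total RNA of 12 samples was hybridized to Illumina Mouse Ref-8 BeadChips. As deposited, a linear intensity (the average over beads, neither normalized nor background-subtracted) is given for every probe. Beside it stands the scanner software's own detection p-value, also deposited. The submitters' processing notes name BeadStudio 3.4 and GenomeStudio 1.1.1. The number of arrays limits the precision.

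The study's methods name z normalization without its formula. Here log2 intensities were centred on the array mean and divided by the array SD over all probes, and the result was scaled by the average SD across arrays, a step added here to keep the log2 scale. This was done within a tissue for AMI against vehicle and over 12 arrays for the tissue comparisons and the interaction. Probes detected (p at most 0.05) on 3 arrays or more were tested with limma 3.58.1 in R 4.3.3 (lmFit, eBayes), with Benjamini-Hochberg adjustment over all tested probes and a threshold of 0.05. The fit was tested on simulated data: of 100 changes of 1 on the log2 scale, 81% were recovered for hippocampus and 90% for cortex (13163 and 12944 probes). Unchanged probes called numbered 4 and 14. No smaller change was simulated, so recovery at the size of the members' AMI changes is not known. Python 3.11.15 with scipy 1.17.1 served for tables and the exact permutation test.

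Groups came from the sample titles. Arrays of one group correlated at 0.986 to 0.994 and none was a duplicate. In the hippocampus, AMI and vehicle arrays of the same number deviated together (r = 0.599, 0.281 and 0.274). The labels do not state a pairing, so the main fits were unpaired, and the number served as a block in an alternative fit. The gene lists were written from general knowledge, and the members and lists were chosen with earlier results of these data known. The genes named are all NDRG probes, up to 3 per list with the largest absolute change in an AMI comparison, and the 3 probes most like each member, with exceptions stated beside them. The probe of a listed gene is the tested one with the highest mean signal. Microglial, endothelial and other marker lists served to describe the samples: with AMI, 5 of 8 microglial genes were higher in each tissue (medians 0.06 and 0.03), 4 of 6 endothelial genes in each (0.09 and 0.06), 4 of 5 hippocampal and 4 of 5 cortical markers in hippocampal arrays, and 1 of 4 and 4 of 7 in cortical arrays. Of 6 choroid plexus genes, 4 were tested in the hippocampus and all 4 were lower (median -1.15), and 4 of 6 were higher in the cortex (0.08). No list gene passed the adjustment in an AMI comparison.

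Alternatives were quantile normalization, median centring, neqc (offset 16), testing without a filter, testing probes whose detection p was at most 0.01 on every array, array weights, a replicate block, all 12 arrays in one fit, the 6 arrays of a treatment, an unpaired test of each probe on its own spread and leaving out each array. The second Ndrg1 probe was added after seeing the data.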

Additional observations from a re-analysis of the deposited data

How the results depend on the processing

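The numbers of members called were 0 in both AMI comparisons and in the interaction under every alternative run, and 1 (Ndrg1) between tissues in vehicle mice under all but one. With the other Ndrg1 probe that count was 0 (difference 0.12, adjusted p = 0.564). Between tissues in AMI mice, where 0 members were called, 1 was called (Ndrg1) with array weights (0.42, adjusted p = 0.0182) and median centring (0.76, adjusted p = 0.0261), and between 0 and 1 when single arrays were left out, the 1 being without hippocampal AMI replicate 2, while the other probe turned its sign (-0.12). Median centring turned the sign of Ndrg3 with AMI (0.082 in the hippocampus, 0.048 in the cortex), of Ndrg2 with AMI in the cortex (0.070) and of Ndrg2 (0.23 in vehicle mice, 0.12 in AMI mice) and Ndrg3 (0.25 and 0.28) between tissues. Array weights turned Ndrg2 with AMI in the cortex (0.019) and, for the interaction, Ndrg3 (-0.026) and Ndrg4 (-0.047). Leaving out 1 array, values ranged from -0.11 to 0.046 for Ndrg3 in the hippocampus, from -0.23 to 0.14 for Ndrg2 and from -0.11 to 0.0069 for Ndrg3 in the cortex with AMI, from -0.36 to 0.026 for Ndrg2 between tissues in vehicle mice, and from -0.27 to 0.12 (Ndrg2), -0.049 to 0.096 (Ndrg3) and -0.058 to 0.080 (Ndrg4) for the interaction. Ndrg4 with AMI stayed positive under all 15 alternatives in each tissue (0.22 to 0.39 and 0.20 to 0.32), with adjusted p from 0.447 to 1.0 in the hippocampus and from 0.0752 to 1.0 in the cortex. Its unadjusted p over these alternatives ran from 0.00696 to 0.0888 in the hippocampus and from 0.0044 to 0.103 in the cortex. With median centring the unadjusted limma p was above 0.05 in both tissues (0.0628 and 0.0736). By an unpaired test of each probe on its own spread, Ndrg4 had an unadjusted p of 0.0317 in hippocampus and 0.0175 in cortex (adjusted p = 1.0 and 0.746), and that test put 483 hippocampal and 827 cortical probes at 0.05 or less and none past the adjustment. The cause of these changes was not tested.

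With the replicate number as a replicate block, the number of members called was 0 for AMI in the hippocampus, 0 for AMI in the cortex, 1 between tissues in vehicle mice, 0 in AMI mice and 0 for the interaction, and no call changed. Ndrg4 with AMI was 0.30 in the hippocampus (unadjusted p of 0.00696, adjusted p = 0.584) and 0.25 in the cortex (adjusted p = 0.526). In the cortex same-numbered AMI and vehicle arrays deviated together for replicates 2 and 3 (r = 0.323 and 0.326) but not for replicate 1 (-0.0595). Between tissues r ran from -0.332 to 0.0772. The number was not taken as a pairing in any main fit.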
